A study of Mus musculus with 6 samples.

Results

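Metalloproteinases and their tissue inhibitors were followed in mouse intestinal tumour organoids by RNA sequencing. The set was taken by symbol from the authors' deposited table of expected counts and holds 78 of its 23224 genes, namely 23 matrix metalloproteinases (Mmp), 32 disintegrin metalloproteinases (Adam), 19 Adam genes with thrombospondin motifs (Adamts) and 4 tissue inhibitors (Timp). Membership rested on the symbol alone and not on any measured value. The 6 libraries were 3 labelled SOX17KO and 3 labelled Control, all from AKP organoids that came from tumours grown in vivo. Both groups share the AKP background. SOX17, an endoderm transcription factor, was targeted with CRISPR-Cas9 in the SOX17KO group to ask about its role in colon cancer. Nothing in the labels tells if replicates were separate cultures or separate clones; p-values therefore measure only the spread between these samples, which may be technical.

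Metalloproteinases cut proteins outside the cell with a zinc ion held in the active site. Matrix metalloproteinases cleave collagens, laminins and other matrix proteins, and are made as inactive precursors that lose a propeptide. Adam proteins sit in the plasma membrane, where the active ones release growth factors, cytokines and the ectodomains of receptors, and Adamts proteins are secreted and cut proteoglycans, procollagens and other matrix proteins. Timp proteins bind the active site and block it. In the gut, much of the matrix-degrading activity is known to come from stromal and immune cells, while matrilysin is made by epithelial cells, including Paneth cells of the small intestine and tumour cells.

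Library totals lay between 18290912 and 24765258 expected counts in SOX17KO and between 21238718 and 27503254 in Control. Levels are given as CPM, the counts scaled by each library's total after edgeR's TMM adjustment. Sox17 itself measured 33.8, 41.9 and 45.1 CPM in replicates 1, 2 and 3 of SOX17KO, against 34.4, 34.5 and 34.2 CPM in Control (edgeR adjusted p = 0.345), so its RNA level does not check the labels, and each group is called by its label. SOX17KO replicate 1 stood apart: its log2 CPM correlated at 0.968 and 0.970 with those of the other SOX17KO libraries, which correlated at 0.991 with each other. The 8 epithelial markers examined, among them Epcam and Krt8, were present in every library. The 10 fibroblast markers summed to between 38.4 and 83.4 CPM in SOX17KO and between 90.3 and 91.8 CPM in Control, nearly all from Twist1, while Col3a1, Dcn, Lum and Thy1 had 0 counts in every library. The 9 leukocyte markers found summed to between 42.0 and 45.8 CPM in SOX17KO and between 28.3 and 31.6 CPM in Control, mostly from Cd14 and Cd68, with Cd3e at 0. The 6 endothelial markers summed to between 3.78 and 4.10 CPM in SOX17KO and between 3.01 and 4.07 CPM in Control.

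Most of the family was silent or nearly so in these organoids. Of the 78 members, 18 passed the low-count filter and were tested, 33 had counts but too few to test, and 27 had 0 counts in all 6 libraries. Of all 23224 genes, 12137 were tested, 4923 had counts but too few to test, and 6164 had 0 counts. Members at 0 included the gelatinase Mmp2, the collagenases Mmp1a, Mmp1b and Mmp8, the macrophage elastase Mmp12, the stromelysin Mmp10, the procollagen propeptidases Adamts2, Adamts3 and Adamts14, and the aggrecanase Adamts5. A count of 0 allows a level of up to 0.115 to 0.166 CPM in a SOX17KO library and up to 0.109 to 0.144 CPM in a Control library, at 3 counts of the library's scaled total and for counting error only. The other gelatinase, Mmp9, had 3 counts over the 6 libraries, and the collagenase Mmp13 had 3 over SOX17KO and 8 over Control. The untested members that had counts reached at most 23 over all libraries among Mmp genes (Mmp17, a membrane-anchored enzyme), 53 among Adam genes (Adam22, a non-catalytic Adam of neurons) and 111 among Adamts genes (Adamts1).

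Among the tested members, levels per kb of the longest protein-coding transcript in GENCODE M21, which is on GRCm38 and not on the authors' mm9, were highest for the sheddase genes Adam9 and Adam10. Adam9 was at 87.1 ± 22.3 CPM per kb in SOX17KO and 77.4 ± 4.40 CPM per kb in Control, and Adam10 at 63.3 ± 13.1 and 62.9 ± 2.62 CPM per kb (SD, n = 3 each). Next came Timp2 at 55.6 ± 3.37 CPM per kb in SOX17KO and 58.2 ± 1.22 CPM per kb in Control, and Mmp14 at 42.5 ± 11 and 36.5 ± 2.33 CPM per kb. In Control these 4 genes were separated from each other by more than their SD, while in SOX17KO the levels of Adam10 and Timp2 lay within the SD of Adam10. Adam15 and Adam17 were at 21.7 ± 5.66 and 19.5 ± 0.953 CPM per kb in SOX17KO and at 19.1 ± 0.656 and 18.8 ± 0.289 CPM per kb in Control, and did not differ from each other beyond their spread. Mmp15 was at 17.3 ± 5.41 CPM per kb in SOX17KO and 11.6 ± 1.6 CPM per kb in Control. Every other tested member was below 6 CPM per kb in both groups.

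**Figure D1:**
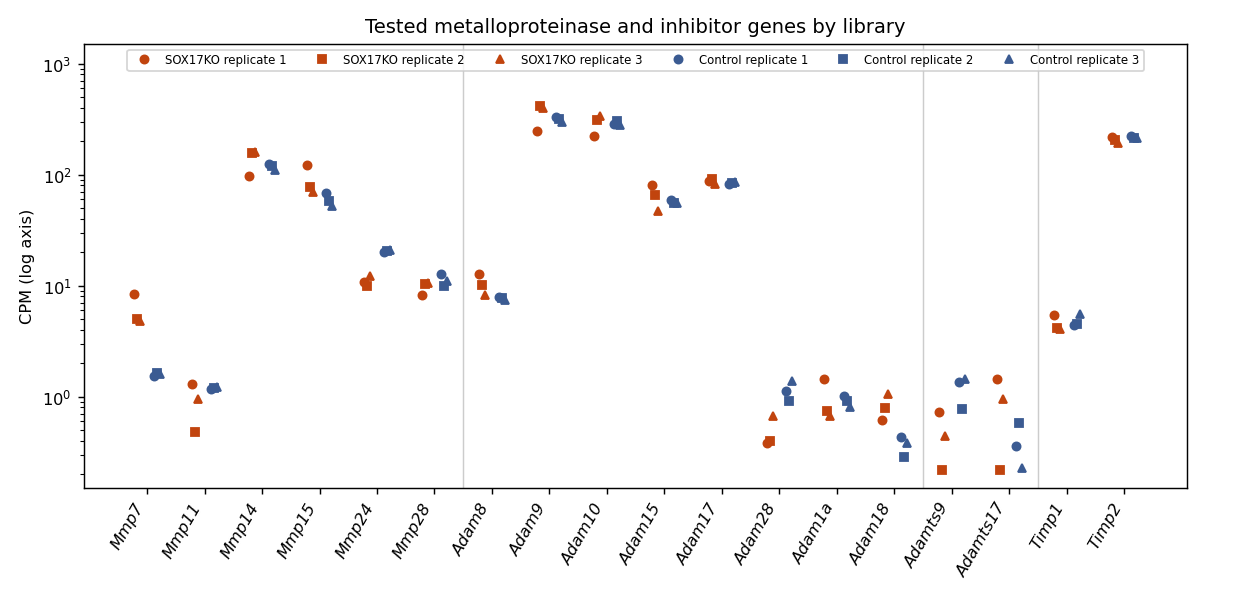
CPM of the 18 tested members (log axis) in each library, with SOX17KO in red to the left of Control in blue and a symbol for each replicate number; grey lines part the Mmp, Adam, Adamts and Timp genes. Mmp7 lies higher and Mmp24 lower in all 3 SOX17KO libraries, and for Adam9, Adam10 and Mmp14 replicate 1 of SOX17KO lies on the other side of Control from replicates 2 and 3.

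In SOX17KO, 1 tested member was higher and 1 lower by edgeR's quasi-likelihood test at a Benjamini-Hochberg adjusted p below 0.05 over all genes. Mmp7 rose and Mmp24 fell, and 16 members were not called. Across the 12137 genes tested, 6.87% were called, 3.67% higher and 3.2% lower, so the 2 calls among 18 members (11.1%) make no result about the family as a whole. The groups did not overlap for 7 of the 18 members, 4 higher and 3 lower, against 28.2% of all tested genes, and 11 of the 18 had a positive log2 fold change. The median log2 fold change was 0.07 over the members and 0.01 over all tested genes. Without SOX17KO replicate 1, 6 of 18 members were called, against 22.2% of all tested genes: Mmp7, Mmp14, Adam9 and Adam18 were higher, and Mmp24 and Adamts9 lower. Without Control replicate 1, 2 or 3, Mmp24 alone was called, against 1.6%, 1.56% and 1.64% of all tested genes.

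**Figure D2:**
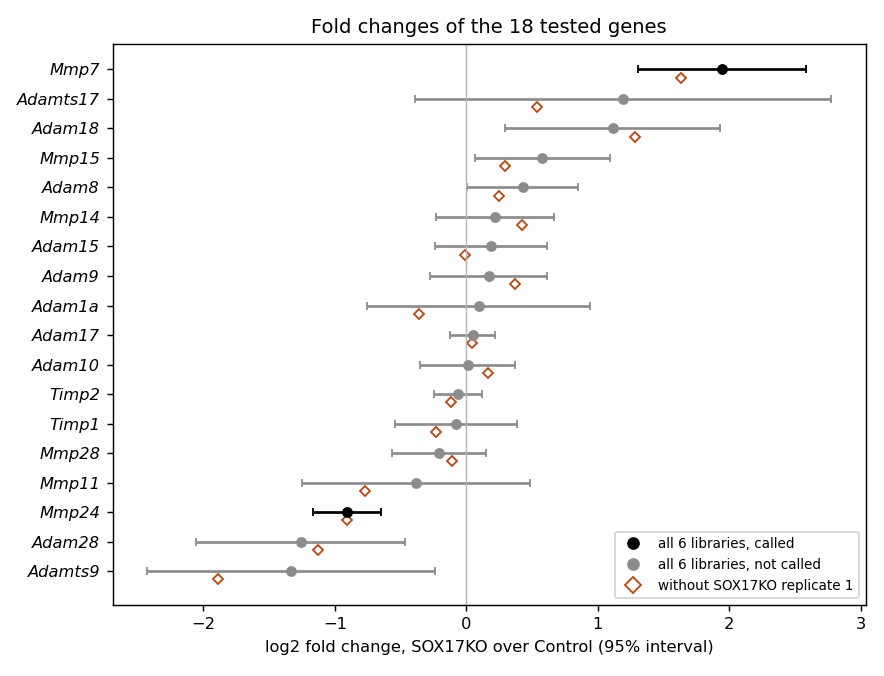
Log2 fold changes of the 18 tested members, SOX17KO over Control, with unadjusted 95% intervals; black points were called with all 6 libraries, grey ones were not, and open red diamonds give the value without SOX17KO replicate 1. Mmp7 at 1.95 and Mmp24 at -0.91 are the called genes, and without replicate 1 Mmp14 moves to 0.42 and Adam9 to 0.37.

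Mmp7 encodes matrilysin, a small secreted proteinase that lacks the hemopexin domain of most of its family and, in the mouse, activates Paneth cell defensins. It measured 8.44, 5.0 and 4.82 CPM in replicates 1, 2 and 3 of SOX17KO, against 1.52, 1.63 and 1.598 CPM in Control. The groups did not overlap, and replicate 1 was the highest of the SOX17KO libraries. Its mean was 6.09 ± 2.04 CPM in SOX17KO and 1.58 ± 0.0552 CPM in Control (SD, n = 3 each), a log2 fold change of 1.95 ± 0.27 (SE; edgeR adjusted p = 0.00824). Without SOX17KO replicate 1 it was 1.63 (edgeR adjusted p = 0.000218). With any 1 Control library left out the log2 fold change stayed between 1.91 and 1.96, but the gene was not called (edgeR adjusted p = 0.0577 to 0.0691). The Paneth markers Lyz1, Ang4, Defa17, Defa22 and Defa24 had 0 counts in every library, and the list of 8 summed to between 8.6 and 27.9 CPM in SOX17KO and between 0.989 and 1.20 CPM in Control, nearly all from Pla2g2a and Itln1. In these bulk libraries more cells of a type and more RNA per cell cannot be told apart, and the part of secretory cells in the Mmp7 values was not tested. The antisense gene AV064505 overlaps Mmp7 in GENCODE M21. The expected counts of Mmp7 were whole in all 6 libraries, so no sharing of reads with another counted gene showed. Since the strand setting of the counting is not given in the sources used here, any AV064505 reads counted as Mmp7 cannot be told apart.

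Mmp24 encodes MT5-MMP, a membrane-anchored metalloproteinase known mainly from neurons. It measured 10.8, 9.88 and 12.1 CPM in replicates 1, 2 and 3 of SOX17KO, against 20.1, 20.5 and 21.0 CPM in Control. Every SOX17KO library lay well below every Control library. Its mean was 11 ± 1.14 CPM in SOX17KO and 20.5 ± 0.480 CPM in Control (SD, n = 3 each), a log2 fold change of -0.91 ± 0.11 (SE; edgeR adjusted p = 0.00541). It was called without each library in turn, with a highest edgeR adjusted p of 0.0478. BC029722 overlaps Mmp24 on the opposite strand in GENCODE M21, and in all 6 libraries the expected counts of the 2 genes were not whole but summed to a whole number within 0.02. Their split of shared reads is therefore uncertain. BC029722 was at 13.6, 18.4 and 17.8 CPM in SOX17KO and at 19.5, 20.2 and 19.1 CPM in Control, and was not called (edgeR adjusted p = 0.387). The sum of both genes was at 24.5, 28.3 and 29.9 CPM in SOX17KO, against 39.6, 40.7 and 40.2 CPM in Control. Counted as 1 gene, the pair fell with a log2 fold change of -0.54 ± 0.10 (SE; edgeR adjusted p = 0.0215).

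**Figure D3:**
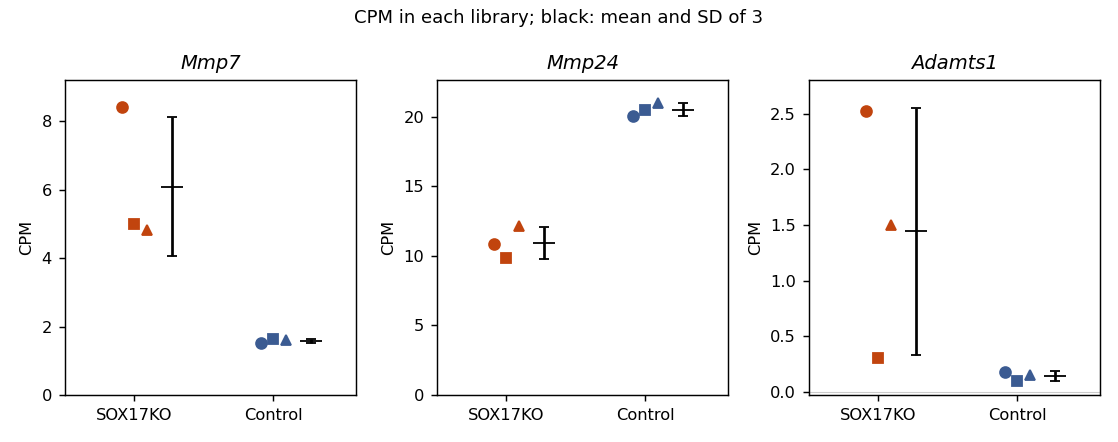
CPM of Mmp7, Mmp24 and Adamts1 in each library (circle, square and triangle for replicates 1, 2 and 3), SOX17KO in red left of Control in blue, with the mean and SD of 3 libraries in black and axes from 0. Mmp7 lies between 4.82 and 8.44 CPM in SOX17KO and near 1.6 CPM in Control, Mmp24 lies lower in SOX17KO, and Adamts1 in SOX17KO ranges from 0.307 to 2.52 CPM.

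The sequences before the RefSeq starts of the 2 called members are shown because promoters are among the places where the transcription factors of the last list act. Both are the 250 bases before the first start, read 5′ to 3′ on the plus strand of GRCm38.p6, from chr9:7691840-7692089 for Mmp7 and chr2:155775092-155775341 for Mmp24. Capitals mark a match to a motif searched on both strands.
Mmp7: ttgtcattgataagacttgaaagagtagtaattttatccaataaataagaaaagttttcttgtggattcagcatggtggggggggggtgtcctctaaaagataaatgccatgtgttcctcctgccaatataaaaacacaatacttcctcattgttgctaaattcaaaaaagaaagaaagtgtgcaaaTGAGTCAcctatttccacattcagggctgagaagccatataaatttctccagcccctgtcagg
Mmp24: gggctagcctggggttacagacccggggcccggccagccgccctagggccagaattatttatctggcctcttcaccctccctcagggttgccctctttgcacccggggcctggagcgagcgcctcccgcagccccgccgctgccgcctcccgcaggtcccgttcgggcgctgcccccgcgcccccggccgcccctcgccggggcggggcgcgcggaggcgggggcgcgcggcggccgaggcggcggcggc
The motifs were AP-1 (TGANTCA), the site of Fos and Jun dimers, TCF/LEF (CTTTGAT) and SOX (ACAATNG), none of which overlaps another. The last list holds no SOX factor, and motifs of its other factors, such as Ets1, Runx1 and Rela, were not searched. The Mmp7 window held 1 AP-1 match, TGAGTCA, that begins 63 bases before the start, and the Mmp24 window held no match to these letters. Of 32851 such windows of mouse genes, 6.75% held the AP-1 letters, 3.21% the TCF/LEF letters and 6.91% the SOX letters. Among the 15 tested members with a window in the table, Mmp7 was the one with an AP-1 match. The window before a second, downstream RefSeq start of Mmp7 held 1 TCF/LEF and 1 SOX match; it lies inside the gene and is not printed. A match describes the letters and does not show binding.

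The membrane-type matrix metalloproteinases Mmp14 and Mmp15 were abundant and were not called. Mmp14 encodes MT1-MMP, a collagenase at the cell surface that also activates the precursor of the gelatinase MMP-2. It measured 96.5, 156.9 and 159.7 CPM in replicates 1, 2 and 3 of SOX17KO, against 125.7, 118.2 and 110.6 CPM in Control. Replicate 1 lay below every Control library and replicates 2 and 3 above, and the log2 fold change was 0.22 (95% interval -0.23 to 0.67; edgeR adjusted p = 0.614). Without replicate 1 it was 0.42 (edgeR adjusted p = 0.00281). Mmp15 encodes MT2-MMP, another membrane-anchored enzyme, and was at 120.8, 76.5 and 69.6 CPM in SOX17KO, against 68.6, 57.7 and 52.5 CPM in Control. Its groups did not overlap, though SOX17KO replicate 3 was within 1 CPM of Control replicate 1, and it was not called (log2 fold change 0.58 ± 0.22, SE; edgeR adjusted p = 0.192). The secreted Mmp28, epilysin, averaged 9.66 ± 1.20 CPM in SOX17KO and 11.1 ± 1.36 CPM in Control (SD, n = 3 each; edgeR adjusted p = 0.534). Mmp11, stromelysin-3, which is known mostly from stromal cells of tumours, averaged 0.908 ± 0.409 and 1.19 ± 0.0301 CPM (edgeR adjusted p = 0.663).

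None of the 8 tested Adam genes was called with edgeR over all genes, against 3 at an unadjusted p below 0.05, a threshold passed by 20.3% of all tested genes, and neither DESeq2 nor limma-voom called any. Adam10 and Adam17 encode the main sheddases of epithelial cells: ADAM10 cuts Notch receptors and E-cadherin, and ADAM17 releases TNF and several EGF receptor ligands. Adam10 measured 223.0, 311.1 and 338.3 CPM in replicates 1, 2 and 3 of SOX17KO, against 287.8, 301.4 and 277.4 CPM in Control. As for Mmp14, replicate 1 lay below the Control range and replicates 2 and 3 above it, and the log2 fold change was 0.01 (95% interval -0.35 to 0.37; edgeR adjusted p = 0.985). Adam17 varied least, at 87.6, 91.1 and 82.6 CPM in SOX17KO and 82.9, 84.3 and 85.5 CPM in Control. The groups overlapped, and the interval of its log2 fold change ran from -0.12 to 0.22 (edgeR adjusted p = 0.797).

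Adam9, which encodes a membrane sheddase, measured 248.6, 413.7 and 394.5 CPM in replicates 1, 2 and 3 of SOX17KO, against 329.7, 315.5 and 294.3 CPM in Control. It too had replicate 1 below and replicates 2 and 3 above every Control library; its log2 fold change was 0.17 (edgeR adjusted p = 0.715) and without replicate 1 it was 0.37 (edgeR adjusted p = 0.00574). Adam15, a sheddase with an integrin-binding disintegrin domain, ran the other way among the SOX17KO libraries, at 80.7, 65.4 and 47.1 CPM, against 59.0, 55.6 and 55.6 CPM in Control. Its SOX17KO libraries enclosed the Control range, and the log2 fold change was 0.19 with all libraries and -0.01 without replicate 1 (edgeR adjusted p = 0.669 and 0.966). Adam8, best known from leukocytes, was at 12.7, 10.1 and 8.20 CPM in SOX17KO and 7.93, 7.70 and 7.42 CPM in Control, with groups that did not overlap (edgeR adjusted p = 0.239). The sums of the leukocyte markers did not overlap between the groups either. Cd14, the largest part of those sums, was at 40.6, 33.1 and 27.9 CPM in SOX17KO and 20.7, 19.8 and 19.8 CPM in Control. For Cd68 the groups overlapped, at 4.66, 11.7 and 13.3 CPM in SOX17KO and 10.7, 8.52 and 7.99 CPM in Control. They overlapped too for the defining leukocyte marker Ptprc, between 0.267 and 0.554 CPM in SOX17KO and between 0.181 and 0.495 CPM in Control. The part of such cells in the Adam8 values was not tested.

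**Figure D4:**
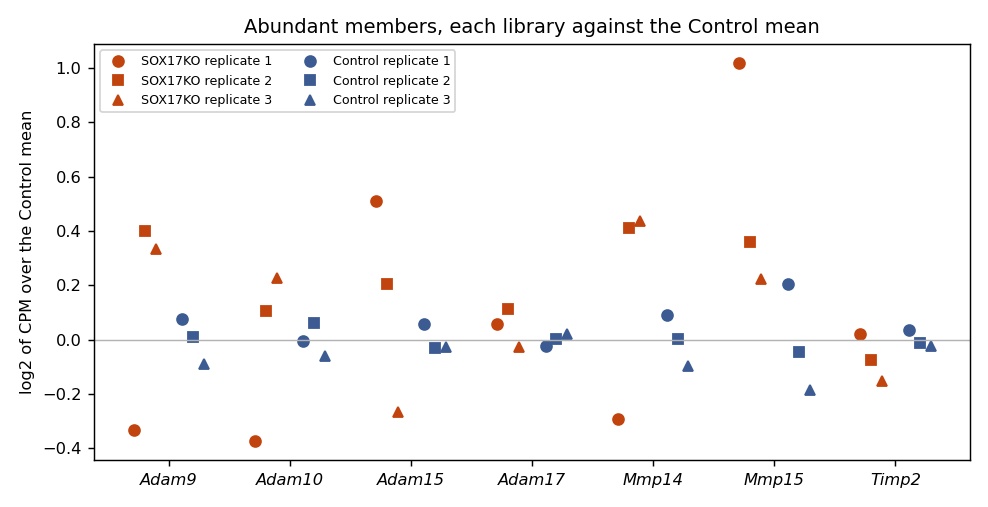
Log2 of each library's CPM over the Control mean for the 7 members at or above 50 CPM in both groups, SOX17KO in red left of Control in blue, with a symbol for each replicate number. Adam9, Adam10 and Mmp14 have SOX17KO replicate 1 lowest and replicates 2 and 3 above every Control library, Mmp15 has replicate 1 highest, and Adam17 and Timp2 stay within 0.2 of 0.

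Of the weakly expressed Adam genes, Adam28, a metalloproteinase known from lymphocytes, was at 0.382, 0.395 and 0.665 CPM in SOX17KO, against 1.12, 0.909 and 1.37 CPM in Control. The groups did not overlap, but its log2 fold change of -1.26 ± 0.34 (SE) was not called (edgeR adjusted p = 0.0769). Adam18, a sperm surface gene, averaged 0.818 ± 0.223 CPM in SOX17KO and 0.367 ± 0.0745 CPM in Control (SD, n = 3 each; edgeR adjusted p = 0.117), with groups that did not overlap. Adam18 reached the filter's 0.415 CPM in 3 SOX17KO libraries and 1 Control library, and Adam28 in 1 SOX17KO library and 3 Control libraries, so that each passed mainly through the group where it was high. Adam1a, another testis gene, averaged 0.954 ± 0.432 and 0.907 ± 0.107 CPM (edgeR adjusted p = 0.934). Its expected counts were not whole in 2 libraries.

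Of 19 Adamts genes only Adamts9 and Adamts17 were tested, and neither was called; 1 had an unadjusted p below 0.05, limma-voom called 0 and DESeq2, which tested 7, called 1. Adamts9, a proteoglycanase, was at 0.725, 0.219 and 0.443 CPM in SOX17KO, against 1.34, 0.765 and 1.45 CPM in Control. The groups did not overlap, though replicate 1 of SOX17KO and replicate 2 of Control were close, and the log2 fold change was -1.34 ± 0.46 (SE; edgeR adjusted p = 0.156). Adamts9 lies on chromosome 6, and its 20 nearest tested genes in RefSeq order had a median log2 fold change of -0.36. Of these, 5 were called lower and 0 higher, against 3.2% and 3.67% of all tested genes. The part of that neighbourhood in the Adamts9 values was not tested. For the other tested members the corresponding median lay between -0.06 and 0.13. The highest were for Adam18 and Adam9, both on chromosome 8, whose windows of neighbours may share genes. For Adam18 and Adam9, 4 and 3 of the 20 neighbours were called higher and 0 lower, against 3.67% and 3.2% of all tested genes. The part of that neighbourhood in their values was not tested either. Adamts17, whose product cuts itself and is needed for fibrillin networks, was at 1.45, 0.219 and 0.942 CPM in SOX17KO and at 0.362, 0.574 and 0.228 CPM in Control, with overlapping groups (edgeR adjusted p = 0.393).

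Adamts1, an aggrecanase and versicanase, missed the filter. It had 66, 7 and 27 counts in SOX17KO replicates 1, 2 and 3, against 5, 2 and 4 in Control, or 2.52, 0.307 and 1.497 CPM against 0.181, 0.0957 and 0.152 CPM. All SOX17KO libraries were above all Control libraries, but they spread widely among themselves. Summed over each group the ratio was 10.1, with a 95% interval of 5.43 to 21 for counting error only. Replicate 1 of SOX17KO supplied 66 of the 100 counts, and without it the ratio was 5.66 (2.8 to 12.4). DESeq2, which kept the gene, called it (adjusted p = 0.00337, with 10.7% of the genes it tested called), as did edgeR with no low-count filter (adjusted p = 0.0413, with 5.19% called) and edgeR without SOX17KO replicate 2 (adjusted p = 0.00823, with 6.16% called). In that last fit the gene passed the filter through the 2 remaining SOX17KO libraries alone, with 0 Control libraries at the 0.404 CPM required, so a difference was built into its passing. Without Control replicate 1, 2 or 3 it also passed through 2 SOX17KO libraries alone and was not called (edgeR adjusted p = 0.208, 0.219 and 0.214), and without SOX17KO replicate 1 or 3 it missed the filter.

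The inhibitors were measured at similar levels in both groups. Timp2, which both inhibits MMP-2 and helps MT1-MMP to activate it, was at 219.3, 205.2 and 194.4 CPM in SOX17KO, against 221.1, 214.2 and 212.6 CPM in Control. The groups overlapped, and the interval of its log2 fold change of -0.07 ran from -0.25 to 0.12 (edgeR adjusted p = 0.732). Timp1, an inhibitor induced in wounds and inflammation, was at 5.42, 4.13 and 4.10 CPM in SOX17KO and 4.38, 4.497 and 5.59 CPM in Control, with a log2 change of -0.08 (95% interval -0.55 to 0.38; edgeR adjusted p = 0.884). Timp3, which is held in the matrix and inhibits ADAM17, had 3 counts in SOX17KO and 1 in Control, and Timp4 had 1 and 3. Neither Timp1 nor Timp2 had an unadjusted p below 0.05, and neither DESeq2 nor limma-voom called them.

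For several members the SOX17KO libraries lay on both sides of the Control range. In 5 of the 18 tested members (27.8%), replicate 1 lay beyond the Control range on one side and replicates 2 and 3 both beyond it on the other, a pattern found in 15% of all tested genes. Adam9, Adam10 and Mmp14 had replicate 1 low, and Mmp11 and Adam1a had it high. The 8 epithelial markers summed to 9950 CPM in SOX17KO replicate 1 and to 14200 and 14100 CPM in replicates 2 and 3, against 13400 to 14100 CPM in Control. In replicate 1 the keratin genes Krt8, Krt18 and Krt19 lay below every Control library, at 2923, 1367 and 3467 CPM. Epcam, Cdh1, Cldn7 and Cdx2 lay above every Control library there, and Vil1 lay within the Control range. The part of these marker differences in the values of the 5 members was not tested.

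Genes that act on or with the family were examined in 4 lists. The lists were chosen with earlier results of these data known, so counts of calls make no result about any list as a whole. Of 18 regulators, such as the activating proprotein convertases and the tetraspanins and iRhoms that escort ADAM10 and ADAM17, 14 were tested and none was called with edgeR, DESeq2 or limma-voom; 6 had an unadjusted edgeR p below 0.05, which 20.3% of all tested genes had. Without SOX17KO replicate 1, edgeR called 1 regulator higher and 2 lower, against 11.9% and 10.3% of all tested genes, and without SOX17KO replicate 2 it called 1 higher, against 3.61%. Bsg, which encodes the glycoprotein basigin, known to induce metalloproteinases, was the most abundant, at 992.2, 2297 and 2452 CPM in SOX17KO, against 2476, 2237 and 2073 CPM in Control (edgeR adjusted p = 0.762). The membrane-anchored inhibitor Reck had 1 count in SOX17KO and 0 in Control. Of 15 related proteinases and Adamts-like genes 3 were tested and 1 rose, against 3.67% of all tested genes: Adamtsl5, a secreted Adamts-like protein without a catalytic domain, was at 1.30, 1.76 and 2.00 CPM in SOX17KO, against 0.651, 0.622 and 0.457 CPM in Control (log2 fold change 1.53, edgeR adjusted p = 0.0262). It was not called without any 1 of the libraries other than SOX17KO replicate 1 (highest edgeR adjusted p 0.142).

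Of 27 substrates known to be shed by ADAM10 or ADAM17, 24 were tested, of which 1 rose, 3 fell and 20 were not called, against 3.67% higher and 3.2% lower among all tested genes. Their median log2 fold change was -0.12, against 0.01 over all tested genes. Epgn, which encodes the EGF receptor ligand epigen, fell to 2.56, 2.94 and 2.72 CPM in SOX17KO, against 6.77, 7.75 and 6.73 CPM in Control (log2 fold change -1.37, edgeR adjusted p = 0.00479). The groups were far apart relative to their spread, and Epgn was called without each library in turn. The chemokine gene Cxcl16 fell to 76.1, 59.4 and 65.9 CPM, against 100.5, 95.2 and 100.6 CPM in Control (edgeR adjusted p = 0.0241), and the adhesion gene Epcam rose to 677.7, 674.7 and 675.3 CPM, against 541.9, 532.2 and 523.5 CPM in Control (edgeR adjusted p = 0.0343). Cxcl16 and Epcam were not called without any 1 Control library (highest edgeR adjusted p 0.123 and 0.207), nor Cxcl16 without SOX17KO replicate 3 (edgeR adjusted p = 0.0671) or Epcam without SOX17KO replicate 2 or 3 (edgeR adjusted p = 0.0657 and 0.0749). The Notch ligand gene Dll1 was the other one to fall (log2 fold change -1.26, edgeR adjusted p = 0.0353), and was not called without any 1 Control library or SOX17KO replicate 2 (highest edgeR adjusted p 0.159). Without SOX17KO replicate 1, 8 substrates were higher and 7 lower, against 11.9% and 10.3% of all tested genes.

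All 18 transcription factors known from work on Mmp promoters were tested. Of these, 4 rose, none fell and 14 were not called, against 3.67% higher and 3.2% lower among all tested genes. The list was chosen with earlier results of these data known, so its counts make no result about the factors as a group. Jun, an AP-1 subunit, was at 59.2, 37.8 and 55.9 CPM in SOX17KO, against 19.5, 18.9 and 18.1 CPM in Control (log2 fold change 1.43, edgeR adjusted p = 0.00511). It was called without each library in turn, and every SOX17KO library was well above every Control library. The other AP-1 genes of the list, Fos, Fosb, Fosl1, Fosl2, Junb and Jund, were not called with all libraries. Their log2 fold changes lay between -0.27 (Fosb) and 0.38 (Jund). Ets1, an ETS factor, was at 37.4, 23.2 and 23.3 CPM in SOX17KO and 9.73, 11.6 and 10.7 CPM in Control (log2 fold change 1.39, edgeR adjusted p = 0.0108). Lef1, which binds TCF/LEF sites with beta-catenin, was at 14.2, 2.63 and 6.04 CPM in SOX17KO and 0.398, 0.431 and 0.609 CPM in Control (log2 fold change 3.98, edgeR adjusted p = 0.0157). Without SOX17KO replicate 1, its highest library, the log2 fold change was 3.14 (edgeR adjusted p = 0.000359). Neither Ets1 nor Lef1 was called without any 1 Control library (highest edgeR adjusted p 0.0815 and 0.109), and Lef1 was not called with limma-voom (adjusted p = 0.0782). The remaining gene, Etv5, another ETS factor, averaged 32.3 ± 6.21 CPM in SOX17KO and 20.8 ± 0.700 CPM in Control (SD, n = 3 each; edgeR adjusted p = 0.0463) and was not called without any 1 Control library or SOX17KO replicate 3 (highest edgeR adjusted p 0.198). Without SOX17KO replicate 1, 8 of these factors were called higher and 0 lower, against 11.9% and 10.3% of all tested genes. Without Control replicate 1, 2 or 3, 1 factor was higher, against 0.806%, 0.796% and 0.789% of all tested genes. Their part in the values of Mmp7 and Mmp24 was not tested.

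**Figure D5:**
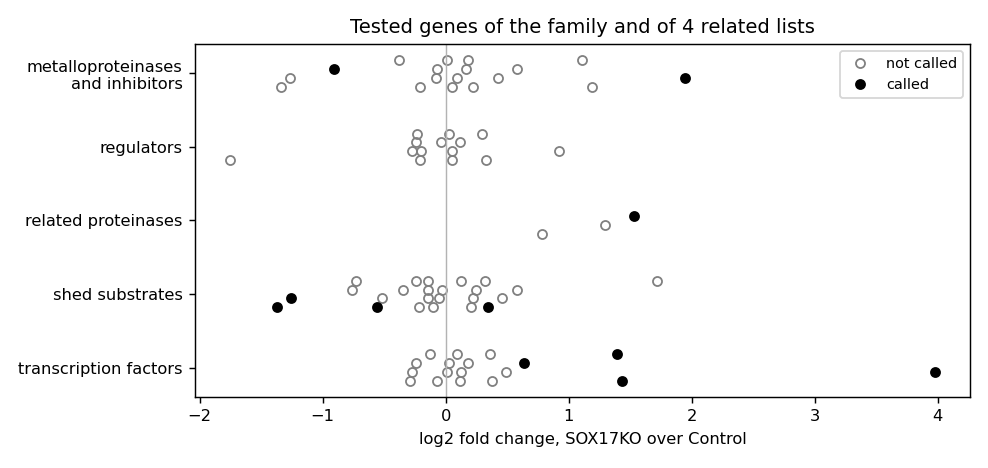
Log2 fold changes, SOX17KO over Control, of every tested gene of the family and of the 4 related lists, 1 point a gene; filled points were called and open points were not. The called points are Mmp7 and Mmp24 in the family, 1 gene among related proteinases, 1 higher and 3 lower among substrates, and 4 higher among transcription factors, with none among regulators.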

How the data were processed

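The authors deposited 1 table of expected counts, RSEM's estimate of the reads of each gene, with a column for each of the 6 libraries. Bowtie, RSEM and mm9 stand in the submitters' processing notes; versions, annotation and strand setting were not given in the sources used here. Per the labels' protocols, the libraries were directional and poly(A)-selected. The share of values that were not whole ran from 26.6% to 30.3%. Rounded values were tested on the whole table with edgeR 4.0.16 (quasi-likelihood F test; R 4.3.3), using TMM factors, filterByExpr with a minimum count of 10 and a minimum total of 15, and Benjamini-Hochberg over 12137 tested genes; an adjusted p below 0.05 made a call. The SE is the log2 fold change over the square root of F. Intervals are at 95%, and counting intervals cover counting error only, since reads had no molecular identifiers.

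The members and lists were chosen with earlier results of these data known. The rule for named genes took called members, members of at least 20 CPM in a group, all Timp genes, 5 fixed members, the largest uncalled changes, the most counted untested member of each family, and up to 3 called genes per list by p; other names were chosen after their values were seen. Alternatives were RLE factors, plain library totals, no filter, a filter of at least 1 CPM in 3 libraries, DESeq2 1.42.0, limma-voom (limma 3.58.1), unrounded values, a replicate block, and leaving out each library; summing Mmp24 with BC029722, and the Adamts1 count ratio without each library, were added after seeing the data. In counts simulated for SOX17KO against Control over 12054 genes, 67, 67 and 66 genes were changed by 1.5-fold, 2-fold and 4-fold. The share of changed genes recovered was 14.9% at 1.5-fold, 65.7% at 2-fold and 93.9% at 4-fold, and 3 of 119 calls were false. Genes were drawn independently, with no library that stood apart as SOX17KO replicate 1 did, so these shares may not hold for the data. No 2 libraries agreed within sampling noise (chi-square per degree of freedom at least 12.1). Promoter sequences are RefSeq's on GRCm38.p6, with a window for 48 of the 78 members. Figures were drawn with matplotlib 3.10.9.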

Additional observations from a re-analysis of the deposited data

How the results depend on the processing

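Among the members, 2 were called with all libraries. Without SOX17KO replicates 1, 2 or 3 and without Control replicates 1, 2 or 3 the count ranged from 1 to 6, and it was 2 or 3 under every other alternative run. Over all genes 834 were called, and 192 to 2708 with a library left out; DESeq2 called 1439. Over the related lists 9 genes were called, and 2 to 27 with a library left out; DESeq2 called 16. With the replicate number as a block 326 genes, 2 members and 4 list genes were called. Deviations of same-numbered libraries from their group means correlated at -0.252, -0.0686 and -0.294, and those of differently numbered libraries at -0.0953 to 0.249. These values showed no pairing by number and cannot settle what the numbers stand for. The main test uses no block. By list, DESeq2 called 3 substrates higher and 6 lower and 6 transcription factors higher, and limma-voom 2 transcription factors higher. With all libraries kept, calls were lost by Cxcl16 and Etv5 with library totals only, Epcam with no low-count filter, Lef1 and Etv5 with limma-voom, and Cxcl16, Epcam, Adamtsl5, Dll1 and Etv5 with the block. No called gene changed direction. Uncalled log2 fold changes near 0 changed sign. Adam10 was at -0.00891 with no low-count filter, -0.0121 with limma-voom and -0.0116 with the replicate block. With a library left out, it ranged from -0.113 to 0.167, Adam15 from -0.00963 to 0.366, Adam1a from -0.357 to 0.283, Timp1 from -0.232 to 0.0271 and Bsg from -0.459 to 0.0682. The cause was not tested. The 3 libraries a group limit what small changes can be called, and 33 members with counts did not pass the low-count filter with all libraries.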
